A study of Homo sapiens with 12 samples.

Results

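Complement is described here through 9 genes followed across 2 human glioma cell lines: C3, C1R, C1S, CFB, CFD, CFI, CD46, CD55 and CD59. The 9 genes were selected by symbol from the 58302 genes of the deposited table, with their values in all groups already known, so their fold changes are given as a description. All 9 had counts and passed the filter on low counts, 3 of them (C1R, C1S and CFD) only because 1 line expressed them. The 12 libraries were made from polyadenylated RNA of U251 and U87 cells, 3 libraries per group. Treated U251 cells had received 180 µM artesunate and treated U87 cells 24.08 µM artesunate, in both cases for 24 h, and every sample is labelled day 9. The control samples of both lines are labelled with medium alone (10%DMEM), and a solvent control is not stated. One line of the labels names artemisinin, the parent compound, in place of artesunate. Because each line had its own dose, line and dose cannot be told apart in any comparison of the responses. Nothing in the labels says that the 3 libraries of a group came from separate cultures, so the tests measure the spread between libraries, which may be technical.

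Complement is a cascade of plasma and tissue proteins that marks surfaces for removal and can perforate membranes. C1r and C1s are the proteases of the first component, which starts the classical pathway. Factor B and factor D build the convertase of the alternative pathway, and all pathways meet at C3, whose cleavage yields the opsonin C3b and the peptide C3a. Factor I cuts C3b into inactive pieces, CD46 serves as its cofactor on the cell surface, CD55 speeds the decay of convertases, and CD59 blocks the last step of pore formation. The liver makes most plasma complement, but astrocytes, microglia and glioma cells also transcribe complement genes, and membrane regulators are found on nearly all human cells.

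Library totals ran from 13631985 to 17314284 counts, and 3 counts, used here as the detection floor, corresponded to a mean of 0.178 to 0.209 CPM (counts scaled to library size) in the 4 groups. Of 11 astrocyte and glioma markers 9 were tested, and their summed level was 5630 to 7560 CPM in every library, most of it VIM. GFAP, the astrocyte filament protein, had 698 to 1514 counts in U251 controls and 10 to 30 in U87 controls, and SOX2, a stem cell factor, had 0 counts in all U87 libraries. AQP4, the astrocyte water channel, had 0 counts in all libraries.

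The promoters of 7 of the 9 genes were found in the RefSeq table (GRCh38.p14), and C3 and C1S were not. The 250 bases before each annotated start were searched on both strands for TTCNNNGAA, the GAS element of interferon-responsive genes, for GGGNNTTTCC, an NF-kB site, and for TGATGNAA, an amino acid response element. The GAS letters occur in 6.57% of all promoters of the table, the NF-kB letters in 1.73% and the amino acid response letters in 3.14%. The GAS letters were found before C1R, CFB and CD59, and none of the 7 genes held either of the other motifs in these windows. The 7 genes had 12 windows, because some have several annotated starts, whereas the percentages are per window. The CD59 match is the same site in overlapping windows. All 250 bases of the CFB window and of the C1R window with the site lie in annotated exons (GENCODE 29). The sites are shown with 10 bases on each side because only this motif was found in any of the windows searched, with capitals marking the match. The C1R site lies at chr12:7091961-7091989 on the minus strand, the CFB site at chr6:31945993-31946021 on the plus strand and the CD59 site at chr11:33736589-33736617 on the minus strand. The fourth sequence is the 250 bases before the first RefSeq start of CD46 (chr1:207751788-207752037, plus strand, 64.8% GC), shown because CD46 was higher in treated U87 cells, and it holds none of the 3 motifs.
C1R site: gccagtcctaTTCCTGGAAggggagggga
CFB site: cgcttggatgTTCCGGGAAagtgatgtgg
CD59 site: ccacccggccTTCTCAGAAcctgggccag
CD46 upstream: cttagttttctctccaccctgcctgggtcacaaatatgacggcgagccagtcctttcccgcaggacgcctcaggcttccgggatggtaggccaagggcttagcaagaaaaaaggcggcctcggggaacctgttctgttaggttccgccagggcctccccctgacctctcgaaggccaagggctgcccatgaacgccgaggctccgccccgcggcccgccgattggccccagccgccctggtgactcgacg
A match of letters is a description of the sequence and not evidence of binding.

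C3, C1R and C1S were high in untreated U87 cells and low in untreated U251 cells. C3 had 49, 65 and 65 counts in the U251 controls and 10475, 11172 and 10244 in the U87 controls, or 3.76 ± 0.449 CPM against 633 ± 43.7 CPM (SD, n = 3). The ratio of the summed counts was 168 in favour of U87, with a 95% exact binomial interval of 145 to 195 that covers counting error only. Every U87 library lay far above every U251 library.

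The proteases of the first component were also higher in U87. C1R had 3, 6 and 5 counts in U251 controls and 919, 1028 and 772 in U87 controls, a ratio of 183 (interval 109 to 335). C1S had 5, 4 and 9 counts against 494, 351 and 336, a ratio of 61.8 (interval 38.9 to 105). The genes lie 9176 bases apart on chromosome 12, with C1S at 6988259 to 7071032 on the plus strand and C1R at 7080209 to 7092607 on the minus strand. C1R overlaps C1RL on the same strand, and C1S overlaps LPCAT3 on the opposite strand. C1S also overlaps EMG1, whose strand was not found, and processed pseudogenes, and C3 overlaps GPR108 on the same strand. Whether the counting used strand is not given in the sources used here, so reads could have been divided differently among these genes.

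The alternative pathway genes went in opposite directions between the lines. CFB, which encodes factor B (chromosome 6, 31945650 to 31952084), had 10, 26 and 8 counts in U251 controls and 54, 76 and 60 in U87 controls, a ratio of 4.07 in favour of U87 (interval 2.92 to 5.78). It shares its span with AL645922.1, a transcript that also covers the neighbouring C2, so its reads are uncertain. CFD, which encodes factor D, was lower in U87, with 8, 10 and 19 counts in U251 controls against 2, 0 and 0 in U87 controls, a ratio of 19.6 with a wide interval of 5.07 to 168. Both genes were rare messages in these lines, and CFD was at or under the floor in all U87 libraries.

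Among the 4 regulators of the set, CFI, CD46 and CD55 were higher in U251 controls, and CD59 was not. CFI, which encodes factor I (chromosome 4, 109740694 to 109802179), was at 30.7 ± 0.991 CPM in U251 controls and 6.99 ± 1.54 CPM in U87 controls (SD, n = 3), a ratio of 4.41 (interval 3.92 to 4.97). CD46 was at 136 ± 8.54 against 62.8 ± 5.93 CPM, and CD55 at 36.8 ± 0.891 against 20.8 ± 0.823 CPM. For these 3 genes the lowest U251 control lay above the highest U87 control. The controls of the 2 lines were apart, in one direction or the other, for all 9 genes, so this does not mark out the 3. How many of all tested genes were apart in this way is not given here. CD46 and CD55 lie on chromosome 1, 365252 bases apart, in a region that holds several complement regulators. CD59 went the other way, at 83.3 ± 12.4 CPM in U251 controls and 175 ± 122 CPM in U87 controls, where 1 library was about 3 times the others. Its highest U251 control, at 97.5 CPM, lay just below its lowest U87 control, at 99.7 CPM.

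Of the 9 genes 8 were called between the controls, 4 higher in U251 (CFI, CFD, CD46 and CD55) and 4 higher in U87 (C3, C1R, C1S and CFB), while 64.8% of all 17150 tested genes were called in this comparison. A gene was called at an adjusted p under 0.05 in edgeR's quasi-likelihood test with Benjamini-Hochberg adjustment over all tested genes. The median log2 fold change of the 9 was -1.07, beside 0 over all tested genes. CD59 was not called (-1.07 ± 0.47, SE; adjusted p = 0.065, range over the alternatives 0.0189 to 0.485), but it was called without U87 control replicate 1 (-1.36) or 3 (-1.35) or without U87 artesunate replicate 2 (-1.08). Only 4.71% of the tested genes had a larger absolute log2 fold change than C3 (-7.39 ± 0.13) and 4.57% a larger one than C1R (-7.48 ± 0.23). When transcript length and GC content entered the fit as an offset, the CD46 difference moved from 1.12 ± 0.13 to 0.47 ± 0.10 and was still called. With the same offset the CD59 difference was called as well, at -1.33 ± 0.50 (edgeR adjusted p = 0.0348).

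Of 8 markers of microglia and leukocytes, cells that also make complement, 3 were tested: CD68 and CSF1R were higher in U87 controls, like C3, and CD14 was lower, with 24 summed counts against 51 in U251 controls. The 8 markers summed to 2.32 to 4.38 CPM in U251 controls and 73.9 to 116 CPM in U87 controls, nearly all of the U87 sum being CD68 and CSF1R, and their part in the level of C3 was not tested. Among the defining markers AIF1 and TYROBP had 0 counts in all 12 libraries, CX3CR1 had 0 in all controls, and PTPRC, the common leukocyte antigen, had at most 4 counts in a library. The 5 liver markers summed to 0.596 to 0.791 CPM in U251 controls and 21.3 to 28.6 CPM in U87 controls. In U87 nearly all of these liver marker counts were SERPINA1, while FGB and TTR had 0 counts in all 12 libraries. In bulk libraries fewer expressing cells and less RNA per cell cannot be told apart.

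**Figure D1:**
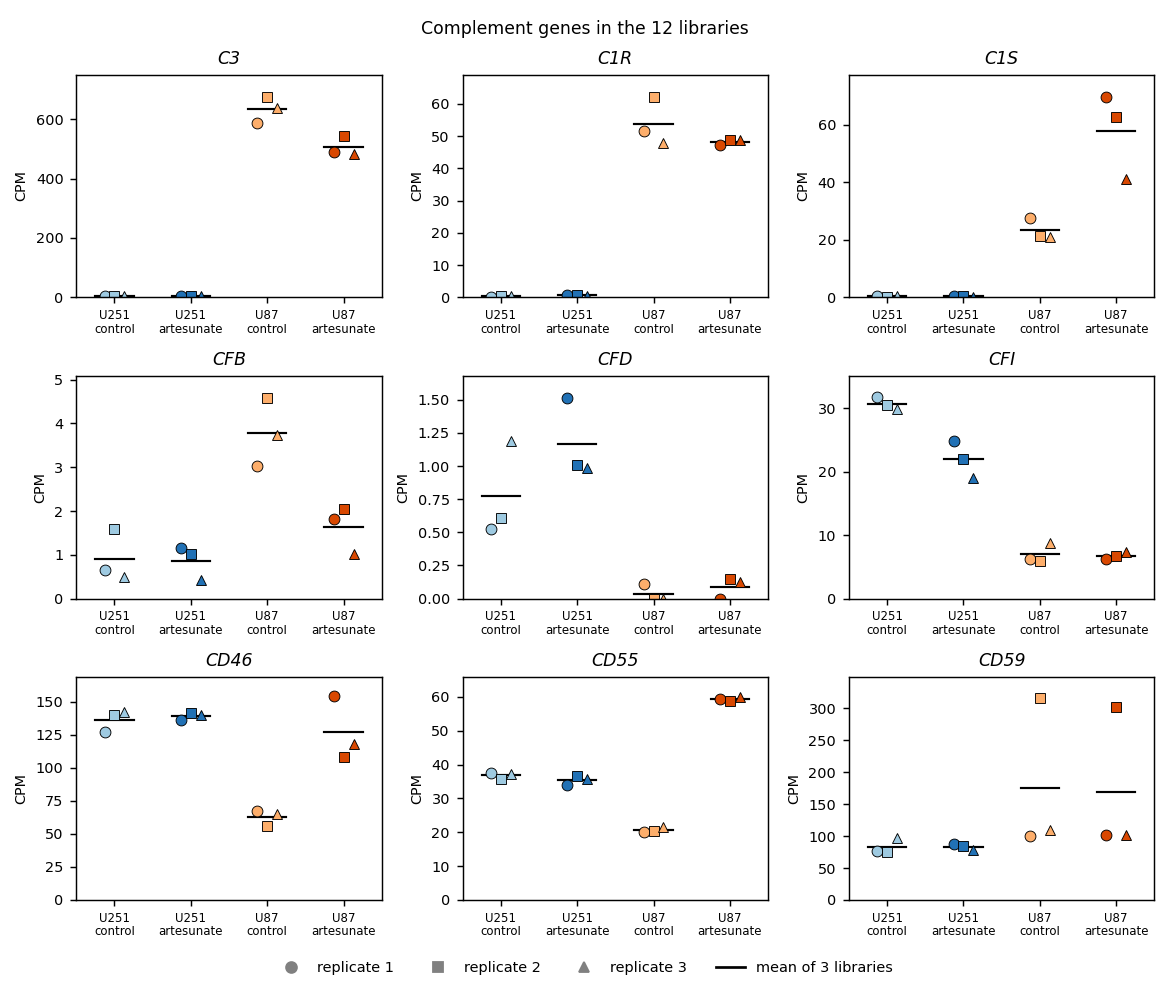
Level of each of the 9 complement genes in CPM (vertical axes, linear from 0) in the 12 libraries, grouped by line and treatment. Each point is 1 library, its shape is the replicate number and the bar is the mean of 3. C3, C1R and C1S lie near 0 in U251, CFI is higher in U251 than in U87, and the squares mark the U87 libraries with CD59 at 317 and 302 CPM.

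Compared per length of transcript, C3 was the first of the 9 genes in U87 controls and the sixth in U251 controls. In U87 controls the mean FPKM (fragments scaled to transcript length and library size) was 54.2 for C3, 11.8 for CD59, 4.73 for C1R, 3.87 for CD46, 2.06 for CD55, 1.51 for C1S, 1.29 for CFI, 0.421 for CFB and 0.0266 for CFD. In this order the libraries' ranges overlapped only between C1S and CFI. In U251 controls the order was CD46 at 8.25, CFI at 5.58, CD59 at 5.54, CD55 at 3.59, CFD at 0.540, C3 at 0.316, CFB at 0.1003, C1R at 0.0252 and C1S at 0.0243 FPKM. There the ranges overlapped between CFI and CD59 and between C1R and C1S. After artesunate CD46 remained first in U251 and C3 first in U87, and CD46 and CD55 stood above C1R in the treated U87 libraries, with FPKM means of 7.39, 5.60 and 4.03.

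Artesunate at 24.08 µM went with higher levels of CD46, CD55 and C1S in U87 and with lower levels of C3 and CFB. Of the 9 genes these 5 were called, 3 higher and 2 lower, and 58.3% of all tested genes were called in the same comparison. The median log2 fold change was -0.06 over the 9 genes and 0 over all tested genes. CD55, the decay accelerator, had 358, 340 and 349 counts in controls and 815, 806 and 937 after artesunate, or 20.8 ± 0.823 against 59.5 ± 0.587 CPM (SD, n = 3). The groups were tight and far apart, at a log2 fold change of 1.52 ± 0.08 (SE), and 15.1% of tested genes had a larger absolute change. CD46 had 67.6, 56.2 and 64.7 CPM in controls and 154, 108 and 118 CPM after artesunate, a log2 fold change of 1.01 ± 0.13. Its treated libraries spread more widely, but the lowest of them lay well above the highest control.

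C1S had 27.7, 21.2 and 20.9 CPM in U87 controls and 69.7, 62.8 and 41.1 CPM after artesunate, a log2 fold change of 1.31 ± 0.23 (SE, n = 3). C1R, its partner protease, had 51.6, 62.1 and 48.0 CPM in controls and 47.1, 48.7 and 48.9 CPM after artesunate, a log2 fold change of -0.16 ± 0.14 that was not called. The C1S groups did not overlap and the C1R groups did, but the difference between the 2 genes was not tested. With the GC offset described below both values were positive and called, 0.38 for C1R and 1.24 for C1S. In FPKM the control mean of C1R was 4.73 and that of C1S 1.51, whereas after artesunate the means were 4.03 and 3.58 with overlapping ranges.

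C3 had 588, 675 and 637 CPM in U87 controls and 491, 543 and 482 CPM after artesunate, a log2 fold change of -0.33 ± 0.10 (SE, n = 3). The treated libraries all lay below the controls, but the step was small, since 74.4% of tested genes had a larger absolute change. CFB had 54, 76 and 60 counts in controls and 25, 28 and 16 after artesunate, or 3.78 ± 0.782 against 1.63 ± 0.536 CPM (SD), with a log2 fold change of -1.22 ± 0.41 (SE). The CFB groups did not overlap, yet its call was lost without control replicate 2 (log2 fold change -1.06), without artesunate replicate 3 (-0.98) and without both U87 libraries numbered 2 (-1.28). CFI was at 6.99 ± 1.54 and 6.72 ± 0.558 CPM, and CD59 at 175 ± 122 and 169 ± 116 CPM (SD, n = 3), neither called. CFD had 2, 0 and 0 counts in controls and 0, 2 and 2 after artesunate, so no fold is given.

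**Figure D2:**
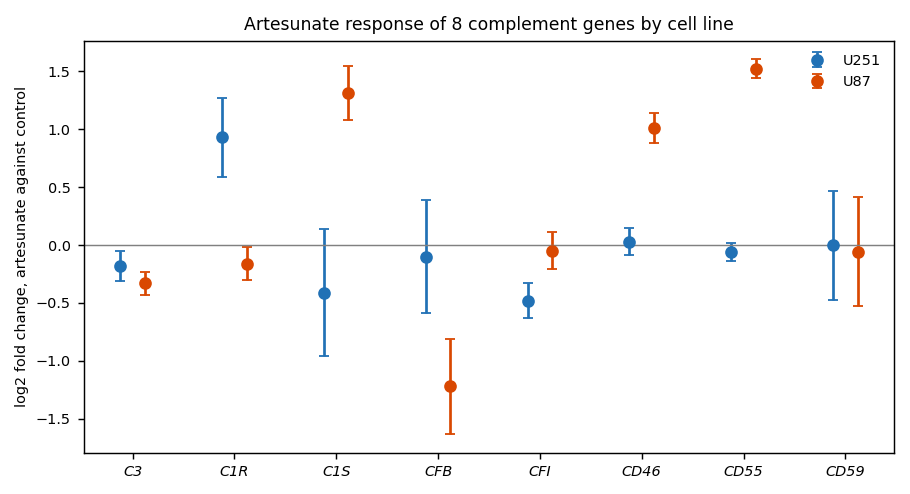
Log2 fold change of artesunate against control (vertical axis) for 8 of the genes in U251 and U87, with bars of 1 SE from edgeR fitted to 3 libraries per group. CFD is left out because U87 had at most 2 counts in a library. The U87 points of C1S, CD46 and CD55 lie at 1.31, 1.01 and 1.52, and those of C3 and CFB at -0.33 and -1.22.

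The U87 response ran along transcript GC content, and this touched most of the 9 values. The 17089 tested genes with a known transcript were ordered by GC content and divided into 5 groups of about equal size. From the lowest to the highest GC content the median log2 fold change of these groups in U87 was 0.70, 0.42, 0.11, -0.40 and -1.16. In U251 the same medians were -0.19, -0.10, -0.01, 0.08 and 0.25. The members that were higher in treated U87 cells had transcripts of 37.7% (CD46), 41.4% (CD55) and 47.9% GC (C1S), and those that were lower 56.5% (C3) and 53.2% (CFB).

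With GC content and length as an offset, CD55 was still higher in U87 after artesunate at 1.08 ± 0.08 and C1S at 1.24 ± 0.22 (log2 fold change, SE). CD46 moved from 1.01 ± 0.13 to 0.31 ± 0.10 and was still called. C3 turned to the other direction, at 0.29 ± 0.09 (edgeR adjusted p = 0.0159), and so did C1R at 0.38 ± 0.13 (edgeR adjusted p = 0.036). For each of these genes the offset was the only 1 of 22 alternatives that changed the direction. The adjusted p over all alternatives (edgeR, DESeq2 and limma), nearly all of them negative in value, ran from 0.000911 to 0.0466 for C3. For C1R it ran from 0.036 to 0.819, and the lowest was that of the offset. With the offset CFB was at -0.87 ± 0.40 and was no longer called (edgeR adjusted p = 0.0999, the highest of its alternatives, which began at 0.00177). CFI moved to -0.53 ± 0.18 and was then called (adjusted p = 0.0312, range to 1). The directions of CD55, CD46 and C1S in U87 therefore held under the offset, while those of C3 and C1R did not. Why the U87 values ran along GC content was not tested.

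**Figure D3:**
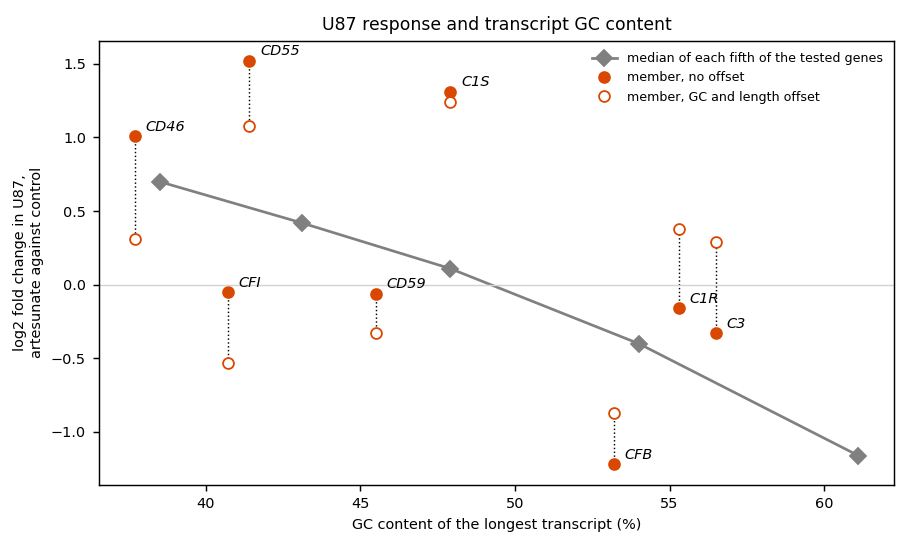
Log2 fold change in U87 (vertical axis) against the GC content of the longest transcript in percent (horizontal axis). Grey diamonds are medians of 5 equal groups of tested genes, filled circles the 8 complement genes without and open circles with the GC and length offset, joined by dotted lines. The medians run from 0.70 to -1.16, and C3 and C1R cross 0 when the offset is applied.

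In U251, at 180 µM artesunate, none of the regulators of the cell surface was called. CD46 was at 136 ± 8.54 CPM in controls and 139 ± 2.63 CPM after artesunate, CD55 at 36.8 ± 0.891 and 35.4 ± 1.45 CPM, and CD59 at 83.3 ± 12.4 and 83.4 ± 4.80 CPM (SD, n = 3). The groups overlapped for all 3 genes, and with the GC offset their log2 fold changes were 0.18 ± 0.10, 0.11 ± 0.08 and 0.01 ± 0.50 (SE). None of the 9 genes was called by edgeR in this line, where 8.34% of all tested genes were called. The unadjusted edgeR p was under 0.05 for CFI (0.00793) and C1R (0.0438), and the share of all genes under that threshold is not given here. DESeq2 called 1 of the 9, CFI, and 2312 genes in all. The median log2 fold change was -0.06 over the 9 and 0 over all tested genes.

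CFI came nearest to a call in U251. It had 480, 501 and 476 counts in controls and 345, 349 and 308 after artesunate, or 30.7 ± 0.991 against 21.9 ± 2.86 CPM (SD, n = 3). All treated libraries lay below all controls, at a log2 fold change of -0.48 ± 0.15 (SE; edgeR adjusted p = 0.0723). Over the alternatives this adjusted p ran from 0.0169 in DESeq2 to 0.317 with the GC offset, which moved the log2 fold change to -0.30. It was also called with only the U251 libraries (-0.49), without U87 control replicate 3 (-0.48) and without U87 artesunate replicate 2 (-0.49). C1R had 3, 6 and 5 counts in controls and 11, 9 and 6 after artesunate, a ratio of 1.92 with an interval of 0.966 to 3.98 that includes no change. C3 was at 3.76 ± 0.449 and 3.33 ± 0.415 CPM (SD), C1S had 18 counts in all controls and 13 in all treated libraries, CFB 44 and 39, and CFD 37 and 53. None of these genes was called in U251.

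The responses of the lines differed for 4 of the 9 genes, beside 49.4% of all tested genes, in the test of the difference itself (U251 minus U87). CD55 differed by -1.57 ± 0.11 and CD46 by -0.99 ± 0.18 (log2, SE), with the change seen in U87. C1S differed by -1.72 ± 0.60 and C1R by 1.09 ± 0.36. The C1R and C1S values rest on 2 to 11 counts per U251 library, and these calls were lost under 12 of 21 alternatives for C1R and 11 of 21 for C1S. For C1R these included leaving out U251 control replicate 1 or 3, U251 artesunate replicate 1 or 2 or U87 control replicate 2, with values of 0.82 to 1.13. For C1S they included U251 control replicate 1 or 3, U251 artesunate replicate 1 or 3, U87 control replicate 2 or 3 and U87 artesunate replicate 1 or 2, with values of -1.33 to -1.77. With the GC offset the CD46 difference was -0.13 ± 0.14 (edgeR adjusted p = 0.55, range over the alternatives 3.32e-06 to 0.55) and that of CD55 -0.97 ± 0.11, still called. The C3 difference of 0.15 ± 0.16 was not called. It was called in opposite directions under 2 alternatives, at 0.34 on log2(FPKM + 1) (limma adjusted p = 0.0173) and at -0.66 ± 0.15 with the offset (edgeR adjusted p = 0.00543). The differences of CFB (1.11 ± 0.64), CFI (-0.43 ± 0.22) and CD59 (0.06 ± 0.66) were not called, though that of CFB was called without U251 control replicate 2 (1.77) and on log2(FPKM + 1) (0.27), and that of CFI without U87 control replicate 3 (-0.59). CFD gave no usable value in U87.

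CD59, the inhibitor of the membrane pore, varied more between U87 libraries than between treatments. It had 1777, 5241 and 1769 counts in U87 controls and 1400, 4140 and 1583 after artesunate. In both groups the library numbered 2 was the high one, at 3.02 times the mean of the other controls and 2.97 times that of the other treated libraries. In U251 the libraries numbered 2 were at 0.864 and 1.03 times the others. Such a lead was rare: 9 tested genes, among them CD59, HNRNPA1L2, MC1R and ADAM19, were at least 2-fold above both other libraries in the U87 control and the U87 artesunate library numbered 2, and 8 genes were as far below. The other replicate numbers gave 7 to 12 genes above and 11 to 18 below. Without both libraries numbered 2, the log2 difference of CD59 between the controls (U251 minus U87) was -0.35 and was called. The artesunate value of CD59 in U87 was 0.68 without control replicate 2 and -0.79 without artesunate replicate 2, neither called. Its gene span in the table (chromosome 11, 33698261 to 33736445) also covers C11orf91.

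Across the 12 libraries, with each line's mean removed, CD46 and CD55 followed each other most closely, with Pearson's r of 0.94 on log2 CPM. C1S had an r of 0.78 with each of them, C3 and CFB had 0.66, and C3 had -0.68 with CD46 and -0.67 with CD55. These values describe 12 libraries that share the treatment contrast of U87 and the GC trend, and no test was made. Among 9599 protein-coding genes outside the lists, those most like CD55 were ORC4 (r = 0.997) and FBXO32 (0.996), and those most like CD46 were PICALM (0.991) and CAB39L (0.985). PCID2 (0.937) and TRIP4 (0.931) were most like C1S, C8orf82 (0.922) and TNFAIP2 (0.920) most like CFB, and WDR6 (0.891) and B3GNTL1 (0.879) most like C3. The best values for CFI, CFD, C1R and CD59 were 0.872 (HAUS1), 0.822 (NDUFC2), 0.894 (PMEPA1) and 0.838 (ZNF263).

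The rest of the pathway was read from a list of 53 other complement genes, of which 16 were tested. In U251 1 of the 16 fell after artesunate and none rose, and in U87 3 rose and 5 fell. These are 6.25% and 50% of the 16, beside 8.34% and 58.3% of all tested genes. No initiation gene was called in either line, among the 4 tested (C4A, C4B, MASP2 and C1RL) of 17 listed. C4A and C4B are near-identical copies whose reads cannot be divided safely. C1QA, C1QB and C1QC, the recognition subunits that C1r and C1s bind, had 0 counts in all 12 libraries, as did C6 of the terminal pathway.

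C5, the source of the peptide C5a and the first terminal component, fell in U251 from 9.77 ± 0.938 to 5.74 ± 0.642 CPM (SD, n = 3), a log2 fold change of -0.77 ± 0.17 (SE; edgeR adjusted p = 0.0178). When 1 library was left out, that call was lost without U251 control replicate 1, artesunate replicate 1 or artesunate replicate 3, with log2 fold changes of -0.67, -0.69 and -0.76. In U87 C5 was at 7.85 ± 1.03 and 7.07 ± 1.2 CPM and was not called. CLU, which encodes clusterin, an inhibitor of the terminal complex, fell in U87 from 73.3 ± 11.5 to 55.3 ± 7.11 CPM (log2 fold change -0.41 ± 0.16, edgeR adjusted p = 0.0489). Its alternatives ran to an adjusted p of 0.304 with the offset, where the value was -0.19. The CLU call was also lost without U251 control replicate 2, U251 artesunate replicate 2 or 3, U87 control replicate 1 or 2 or U87 artesunate replicate 1 or 3, with values of -0.27 to -0.47.

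The receptors for the cleaved peptides rose in U87. C5AR1, the C5a receptor, had 237, 112 and 242 counts in U87 controls and 1592, 1265 and 2619 after artesunate, or 11.7 ± 4.36 against 125 ± 38.6 CPM (SD, n = 3). Its log2 fold change of 3.42 ± 0.39 (SE; edgeR adjusted p = 1.67e-05) was 3.59 with the GC offset, and every treated library lay above every control. C3AR1, the C3a receptor, rose from 13.2 ± 0.656 to 24.6 ± 2.94 CPM (log2 fold change 0.90 ± 0.16, edgeR adjusted p = 0.000469; 0.69 with the offset). In U251 C5AR1 had 5, 0 and 0 counts in controls and 9, 15 and 4 after artesunate (edgeR adjusted p = 0.181), and C3AR1 had 49 counts in all controls and 34 in all treated libraries, which was not called. The C3AR1 response differed between the lines by -1.37 ± 0.29 (edgeR adjusted p = 0.00228), and that of C5AR1 did not pass the test (-0.98 ± 1.51, or 2.88 without U251 control replicate 1, which held all its control counts). The C5AR1 difference was called on log2(FPKM + 1) at -2.85 (limma adjusted p = 5.38e-05). On log2(FPKM + 0.1) it was called at -2.27 (limma adjusted p = 0.00625).

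CSMD2, a large membrane protein with complement control domains, fell in U87 from 247 ± 11.8 to 119 ± 25.8 CPM (SD, n = 3), a log2 fold change of -1.05 ± 0.13 (SE; edgeR adjusted p = 3.18e-05) that was -0.55 with the offset and still called. ITGAX, the alpha chain of complement receptor 4, fell in U87 from 24.4 ± 2.13 to 14.5 ± 4.06 CPM (log2 fold change -0.75 ± 0.21, edgeR adjusted p = 0.0162). With the offset ITGAX was at -0.16 and not called (adjusted p = 0.423, the highest of its alternatives), and it also lost the call without U87 control replicate 3 (-0.70), artesunate replicate 1 (-0.64) or artesunate replicate 3 (-0.65). ITGAX had 0 counts in all U251 libraries. ITGB2, which encodes the beta chain of the same receptor, had only 19 summed counts in U87 controls and 11 after artesunate. The other 3 genes of this role called in U87, named here after their values were seen, were C5AR2 (0.72), a second C5a receptor, and C1QBP (-0.54) and CALR (-0.64), which bind C1q. The CALR call was lost with the offset (-0.23) and that of C5AR2 without both U87 libraries numbered 2 (0.55). The microglia and leukocyte markers summed to 73.9 to 116 CPM in U87 controls and 31.3 to 60.7 CPM after artesunate. The sum was lower after artesunate like ITGAX and unlike C3AR1 and C5AR1, but nearly all of it was CD68 and CSF1R. CD68 had 54.5, 76.4 and 92.2 CPM in U87 controls and 54.1, 24 and 22.2 CPM after artesunate. PTPRC had 5 summed counts in both U87 groups. The part of these markers in the receptor values was not tested.

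**Figure D4:**
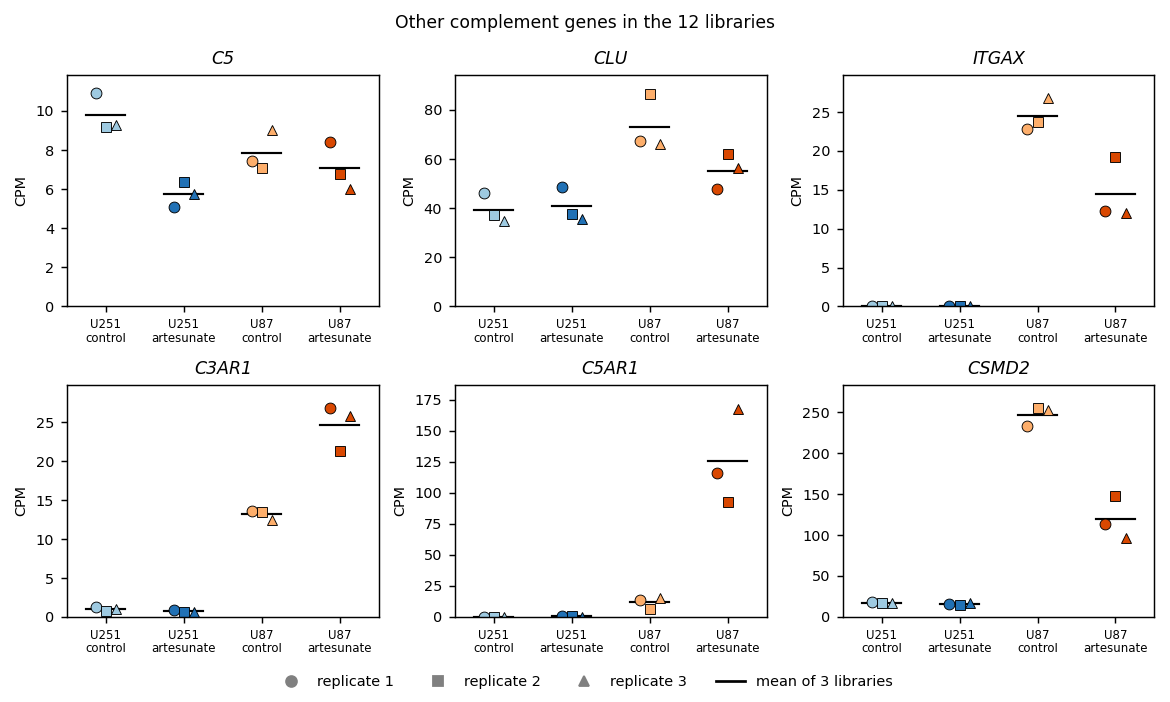
Level in CPM (vertical axes, linear from 0) of 6 other complement genes in the 12 libraries, 1 point per library with the bar at the mean of 3. C5 is lower in treated U251 and ITGAX has 0 counts there, while C5AR1 goes from 11.7 to 125 CPM and C3AR1 from 13.2 to 24.6 CPM in U87.

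Of 11 transcription factors known for complement genes 10 were tested, 3 rose in U251 and none fell, and 3 rose and 2 fell in U87. These are 30% and 50% of the 10, beside 8.34% and 58.3% of all tested genes. NFKB2, an NF-kB subunit named here after its values were seen, was called in U87 at -0.59, and with the offset at 0.60 in the other direction. IRF1, an interferon regulatory factor, had 16.6, 15.6 and 14.9 CPM in U87 controls and 21.8, 28.3 and 24.2 CPM after artesunate, groups that do not overlap. Its log2 fold change was 0.66 ± 0.12 (SE, n = 3; edgeR adjusted p = 0.000544) and 0.91 with the GC offset. In U251 IRF1 was at 15.7 ± 1.34 CPM in controls and 20.8 ± 0.602 CPM after artesunate (SD, n = 3) and was not called (0.41 ± 0.12, edgeR adjusted p = 0.0572). ATF4, the factor of the integrated stress response, rose in both lines, by 1.46 ± 0.07 in U251 and 1.70 ± 0.07 in U87 (edgeR adjusted p = 5.49e-07 and 1.6e-08). Its difference between the lines was -0.23 and not called (edgeR adjusted p = 0.0618). With the offset that difference was -1.04 and called (edgeR adjusted p = 1.77e-05).

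CEBPB, a factor of acute phase genes, rose in U251 from 70.1 ± 5.07 to 142 ± 7.89 CPM and fell in U87 from 425 ± 11.3 to 233 ± 49.5 CPM (SD, n = 3; log2 fold changes 1.01 ± 0.13 and -0.86 ± 0.13, edgeR adjusted p = 0.000766 and 0.000108). With the offset the U87 value of CEBPB turned to 0.75 and was called in that direction, and its difference between the lines went from 1.88 ± 0.18 to -0.04. CEBPD, its close relative, rose in U251 (0.68 ± 0.14, edgeR adjusted p = 0.0118) and was at 35.8 CPM in both U87 groups. The CEBPD value in U251 with the offset was 0.29 and not called. That call was also lost without U251 control replicate 2, artesunate replicate 1 or artesunate replicate 2, at 0.58 to 0.64. With the offset the CEBPD difference between the lines (U251 minus U87) turned from 0.68 to -1.76 (edgeR adjusted p = 0.00106). Under the offset the larger CEBPD value was therefore that of U87. IRF2, of the same family as IRF1, rose in U87 (0.79 ± 0.12, edgeR adjusted p = 0.000172; 0.57 with the offset).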

How the data were processed

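RNA-seq libraries of polyadenylated RNA from U251 and U87 cells, 3 in each of 4 groups, were analysed. The deposited table gives raw whole-number counts per gene, deposited without normalization per the file headers, and FPKM, which per the file headers the authors scaled with TMM. Per the submitters' processing notes fastp, HISAT2 2.1.0, StringTie 1.3.3b and edgeR 3.30.3 were used. The strandedness of the counting is not given in the sources used here.

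The counts were fitted with edgeR 4.0.16 in R 4.3.3 (filterByExpr with a minimum count of 10 and a minimum total of 15, TMM, quasi-likelihood, 1 mean per group, all 12 libraries), and p-values were adjusted by Benjamini-Hochberg over 17150 genes. Standard errors were computed as the size of the log2 fold change divided by the root of the F statistic. CPM are counts scaled to the library total and TMM factor, given with the SD of 3 libraries. The fit was tested on simulated data. Alternatives were other size factors, no filter, DESeq2 1.42.0, only the groups compared, a block by replicate number, limma 3.58.1 on log2(FPKM + 1) and log2(FPKM + 0.1), a GC and length offset (mgcv 1.9.3, longest GENCODE 29 transcript, 17089 genes), and leaving out each library.

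The 9 genes and all lists were chosen with earlier results of these data known. Other complement genes were named where called after artesunate, at most 4 per role with the largest change, and transcription factors likewise (some genes of these lists are not reported here), with 2 genes most like each member among protein-coding genes at a mean of 3 or more on the log2 CPM scale. Symbols and positions came from the table and promoter sequences from RefSeq (GRCh38.p14). Totals of 13631985 to 17314284 counts put the floor of 3 counts at a mean of 0.178 to 0.209 CPM per group, and intervals (95%, exact) cover counting error only.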

Additional observations from a re-analysis of the deposited data

Results flagged for a closer look

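The response to artesunate differed between the lines for 12 of the complement genes and transcription factors described. This was read from the test of the difference itself (U251 minus U87, log2, edgeR with adjustment over all tested genes). In that test 49.4% of all tested genes were called. The genes outside the 9 had been named only where called after artesunate in a line, so the 12 are no share to set beside that percentage. Among the 9 complement genes the difference was 1.09 for C1R, -1.72 for C1S, -0.99 for CD46 and -1.57 for CD55. Among the other complement genes it was -0.61 for C5 (edgeR adjusted p = 0.0494, range over the alternatives 0.034 to 0.859, with the call lost in 16 of 21), -1.37 for C3AR1, 0.90 for CSMD2 and 0.68 for CALR, and among the transcription factors -0.74 for IRF2, 1.88 for CEBPB, 0.68 for CEBPD and 0.87 for NFKB2. With the GC and length offset the differences of CD55 and C3AR1 kept their direction and call, at -0.97 and -1.07. Those of C1R (0.42), C1S (-1.62), CD46 (-0.13), CSMD2 (0.19), CALR (0.19) and IRF2 (-0.43) kept their direction and lost the call, and those of C5, CEBPB, CEBPD and NFKB2 turned. The doses also differed, and their part cannot be told apart from that of the line.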

How the results depend on the processing

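Of 1458 single-gene results under an alternative, 1315 kept direction and call, 71 lost the call, 31 gained it and 41 changed sign, and 225 of 258 counts stayed within 1.5 times. In U251 the count of the 9 genes called went from 0 to 1 with DESeq2, with only the compared libraries and on log2(FPKM + 1), and was 0 to 1 when a library was left out. The count of other complement genes called there went from 1 to 2 with DESeq2 and with the GC and length offset and 0 with the replicate block, where C5 was at -0.77 (edgeR adjusted p = 0.064). It was 0 to 1 without a library. The 1431 genes called in all there became 864 with no filter on low counts, 2312 with DESeq2, 2892 with only the compared libraries, 2154 on log2(FPKM + 1) and 2447 without both U87 libraries numbered 2 (652 to 2582 without a library). For the difference between the lines, the 4 members called became 2 with no filter, with the GC and length offset and without both U87 libraries numbered 2 (2 to 5 without a library). The 4 other complement genes called became 8 on log2(FPKM + 1), 7 on log2(FPKM + 0.1) and 1 with the offset, and the 8478 genes in all became 5136 with the offset.

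With the GC and length offset the sign changed for C3 in U87 (0.29) and in the difference (-0.66), C1R in U87 (0.38), CFI in the difference (0.23), CD55 in U251 (0.11), C5 in the difference (0.08), CEBPB in U87 (0.75) and in the difference (-0.04) CEBPD in the difference (-1.76) and NFKB2 in U87 (0.60) and in the difference (-0.59). CFD in the difference was 0.18 on both FPKM scales and 0.43 without both U87 libraries numbered 2. CD46 in U251 was -0.01 on total counts and on both FPKM scales, and CD59 in U251 was -0.03 on total counts, 0 with only the compared libraries and -0.02 on both FPKM scales. Leaving out a library moved CFB in U251 over -0.41 to 0.55, CFI in U87 over -0.16 to 0.11, CD46 in U251 over -0.01 to 0.05, CD59 in U251 over -0.07 to 0.12, in U87 over -0.79 to 0.68 and in the difference over -0.69 to 0.79, and C5AR1 in the difference over -1.55 to 2.88. The causes were not tested. On total counts C1R and CD55 in treated U87 were 47.05 and 57.99 CPM. The choice to leave out both libraries numbered 2 was made after seeing the CD59 counts.

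Whether a replicate number links a control and an artesunate library is not stated in the labels. Deviations from the group means over all tested genes were correlated between same-numbered control and artesunate libraries. The r values were 0.04, 0 and 0.04 in U251 and 0.05, 0.05 and -0.01 in U87. Such values over all genes cannot exclude a link, and CD59 was high in both U87 libraries numbered 2. With the replicate block 0, 5 and 3 of the 9 genes were called in U251, U87 and the difference. Without the block the counts were 0, 5 and 4, beside 8.34%, 58.3% and 49.4% of all tested genes. The comparison of the controls could not be fitted with the block. Low counts limited the precision for C1R, C1S, CFB and CFD in U251 and CFD in U87.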
